A study of Mus musculus with 33 samples.

Results

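Regulatory T cells (Treg) that carry ST2, the receptor for IL-33, but not TSLPR, the receptor for TSLP, were compared between the colons of mice with colitis-associated cancer and of naive mice. The libraries were chosen by their sort label, TSLPR negative and Il1rl1 positive (Il1rl1 is the gene of ST2), which gave 8 of the 33 libraries of the series: 4 from cancer mice (mice 5 to 8) and 4 from naive mice (mice 1 to 4). All mice were of the genotype Foxp3-yfp B6, a reporter for the Treg factor Foxp3 on the C57BL/6 background, and the growth protocol gives an age of 7 to 12 weeks. Cancer mice received 1 injection of the carcinogen azoxymethane (AOM, 10 mg/kg) and then 3 cycles of the colitis agent dextran sodium sulfate (DSS, 7 days each) in drinking water, and the protocol has mice taken 2 weeks after the final DSS. Naive mice are labelled only as naive, and no label says whether they had a mock treatment. No group had AOM or DSS alone, so tumours, recent colitis and the chemicals cannot be told apart in any difference below. The age range is the same for both arms and does not show whether they were matched, so age cannot be told apart either. The days of sorting and sequencing are not known here. From each mouse 200 CD45+ TCR+ CD4+ Foxp3+ cells of this gate were sorted into lysis buffer and amplified with SMART-Seq v4, which copies full-length polyadenylated RNA.

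ST2 is carried by a large share of Treg in the colon, where IL-33 released by damaged epithelium and stroma is known to support their growth and stability. Such cells often express the transcription factor Gata3 and the lectin receptor Klrg1, and can make amphiregulin, an epithelial growth factor. The identity of all Treg rests on Foxp3 and on a high level of the IL-2 receptor alpha chain, through which IL-2 maintains them.

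The 8 libraries held 5391026 to 7589967 counts in cancer mice and 6458270 to 8164196 counts in naive mice, and mitochondrially encoded genes took 0.958% to 1.64% of the counts of cancer libraries and 0.616% to 1.28% of those of naive ones. Levels below are CPM, read counts relative to the library total after TMM scaling, and changes are log2 differences, cancer minus naive, from edgeR's quasi-likelihood test with Benjamini-Hochberg adjusted p, called at an adjusted p under 0.05. CPM does not account for gene length, so levels are compared between samples and not between genes. In such bulk libraries fewer cells of a type and less RNA per cell cannot be told apart.

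Of the sort genes, that of ST2 followed its gate, and that of TSLPR did so less cleanly in cancer mice. Il1rl1 had 165, 103, 179.7 and 95.6 CPM in cancer mice 5 to 8, against 194, 149, 309 and 210.3 CPM in naive mice 1 to 4, while the 8 TSLPR-ST2- libraries held 0 to 7.78 CPM in cancer and 0 to 3.34 CPM in naive mice. The cancer and naive ranges overlapped, and the change did not pass (log2 -0.67, SE 0.70, adjusted p = 0.855). Crlf2, the gene of TSLPR, had 13.6 to 30.5 CPM in cancer and 12.8 to 19.0 CPM in naive TSLPR-ST2+ libraries. The TSLPR+ST2+ libraries had 25.2 to 54.2 CPM in cancer and 39.1 to 57.2 CPM in naive mice, so the 2 gates overlapped in cancer mice. The highest TSLPR-ST2+ value, 30.5 CPM in cancer mouse 5, lay above the 25.2 CPM of the TSLPR+ST2+ library of the same mouse. This is against the order of the gates, so counts are also given without the TSLPR-ST2+ library of mouse 5. Foxp3 had 105, 99.6, 106 and 110.2 CPM in cancer libraries, against 163, 196, 107 and 160.4 CPM in naive libraries. Only naive mouse 3 reached down to the cancer range, and the change did not pass (log2 -0.58, SE 0.22, adjusted p = 0.342).

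Markers of other cells were present at levels that differed between mice. The summed level of the macrophage and dendritic cell markers, of which 21 of 23 were tested and none passed, was 844 to 2909 CPM in cancer and 829 to 3133 CPM in naive libraries, highest in cancer mouse 8 and naive mouse 3 and led by Lyz2, Cd74 and H2-Ab1. This sum pools both directions, with 12 changes above 0 and 9 below it. Of the 21 tested, 4 were higher (5.05% of all genes were) and 2 lower (5.5%) at an unadjusted p under 0.05. H2-Aa had 335, 1237, 970 and 800 counts in cancer mice 5 to 8, against 217, 90, 408 and 141 in naive mice. C1qb had 219, 56, 156 and 660 counts in cancer mice 5 to 8, against 425, 319, 2477 and 666 in naive mice. H2-Aa and C1qb were chosen after their values were seen. Epithelial markers summed to 99.4 to 190.2 CPM in cancer and 60.2 to 117 CPM in naive libraries. All 16 epithelial markers tested had a log2 change above 0, and none passed the adjusted limit. Of these 16, 4 were higher at an unadjusted p under 0.05, as were 5.05% of all genes. B and plasma cell markers summed to 56.9 to 121 CPM in cancer and 44.9 to 138 CPM in naive libraries. Of the neutrophil markers 6 of 10 were at 0 in all 8 libraries, as were 10 of 14 mast cell and ILC2 markers, 5 of 14 stromal and endothelial markers and 3 of 15 markers of CD8, NK and gamma-delta T cells. In that last list 10 genes were tested and none passed, with 6 changes above 0 and 4 below it. At an unadjusted p under 0.05, 4 were higher (5.05% of all genes were) and 1 lower (5.5%). Cd8a had 6.56, 20.4, 20.3 and 0 CPM in cancer mice 5 to 8 and did not pass (adjusted p = 0.193). Naive mice 1 to 4 had 0, 0.309, 0.127 and 0 CPM of Cd8a. Tcrg-C1 went the other way, with 39, 20, 15 and 0 counts in cancer mice 5 to 8. Naive mice 1 to 4 had 287, 106, 57 and 115 counts of Tcrg-C1. Cd8a and Tcrg-C1 were chosen after their values were seen. The part of such cells in the results below was not tested. A count with the macrophage and dendritic marker sum as a covariate is given next, but that sum pools markers of both directions.

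**Figure D1:**
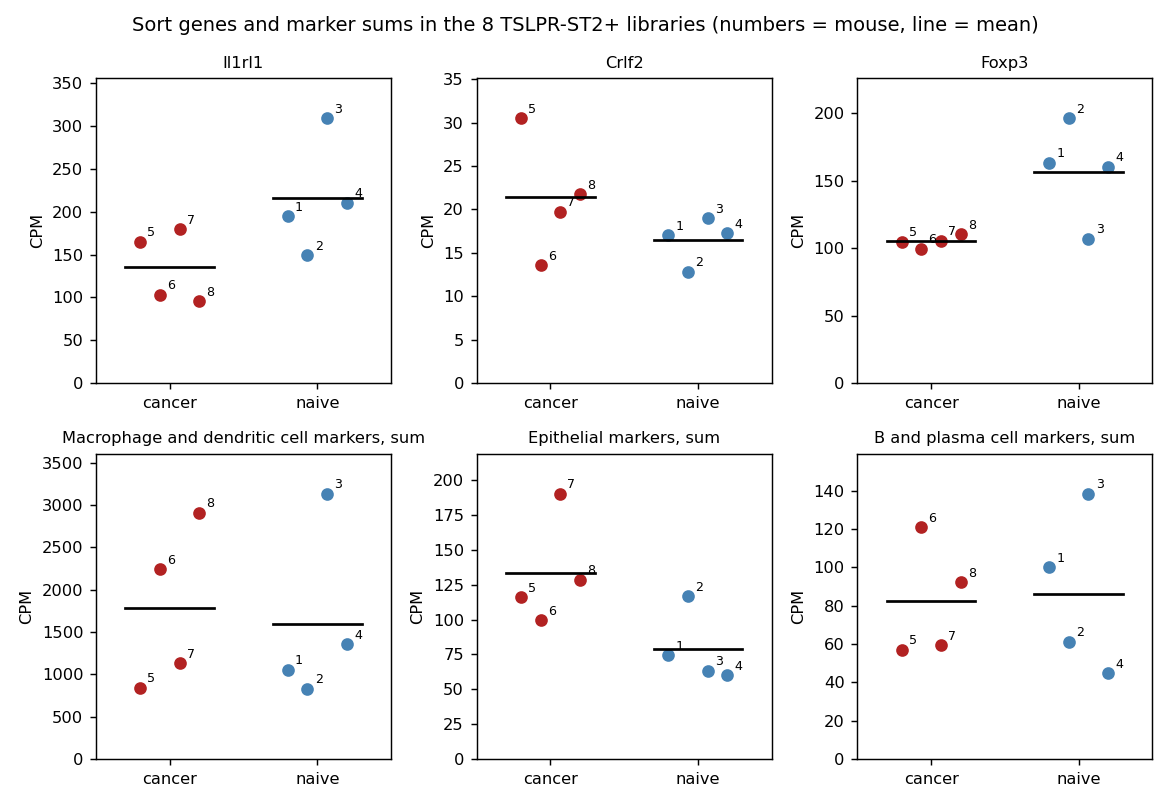
Level in CPM of 3 sort genes (upper row) and summed level of 3 marker lists (lower row) in each of the 8 TSLPR-ST2+ libraries, cancer left and naive right, with the mouse number beside each point and the mean as a line. Foxp3 lies at 99.6 to 110.2 CPM in cancer libraries, and the macrophage and dendritic marker sum is highest in cancer mouse 8 and naive mouse 3.

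In TSLPR-ST2+ Treg of cancer mice, genes of Treg identity (Il2ra, Gpr83, Lrrc32), the AP-1 subunit Junb and a set of interferon-induced genes fell, while the inflammatory caspases Casp1 and Casp4, the T cell receptor adaptor Lat and the adhesion gene Emb rose. Of 14861 genes tested, 30 passed (0.202%), 7 higher (0.0471%) and 23 lower (0.155%). At an unadjusted p under 0.05 there were 1568 genes (10.6%), 750 higher (5.05%) and 818 lower (5.5%), and the median change of all genes was 0.00 on the log2 scale. The 4 cancer and 4 naive values did not overlap in 542 genes (3.65% of those tested). With the marker sum of macrophages and dendritic cells as a covariate, an alternative chosen after seeing the data, 30 genes passed and all 30 were shared. Without the library of mouse 5 there were 47, of which 27 were shared. The call is sensitive to single mice: it ran from 4 genes without naive mouse 1 to 37 without cancer mouse 6, and was 6 without naive mouse 4 and 10 without naive mouse 2. A fit of the 8 libraries alone called 2 genes, Junb and Gpr83, and DESeq2 called 204, among them all 30.

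**Figure D2:**
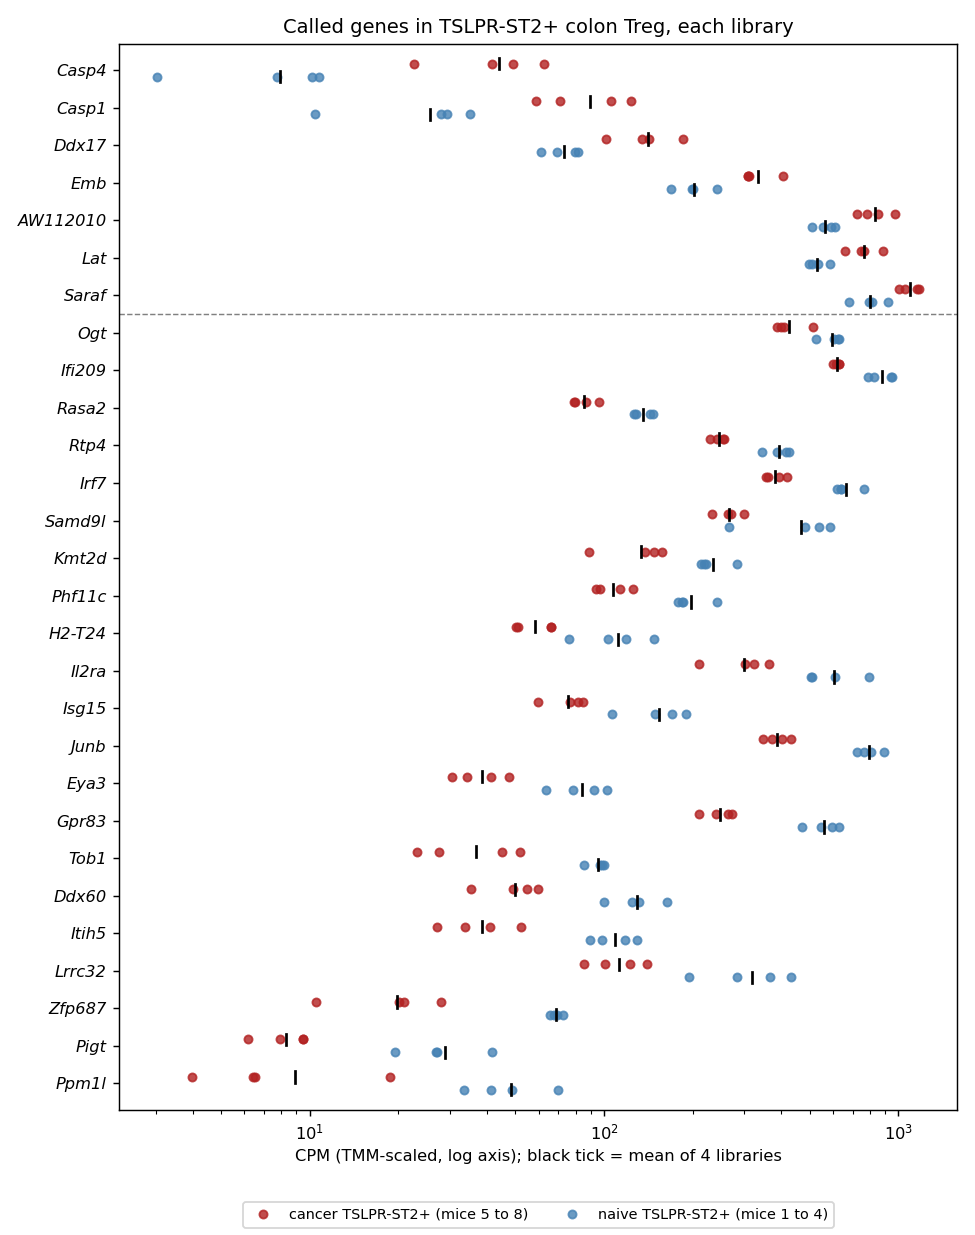
Level in CPM (log axis) of the 28 called genes described, each library as a point, cancer in red above naive in blue, with the mean of 4 libraries as a black tick; genes above the dashed line were higher in cancer. The groups overlap in Samd9l alone of these 28, where naive mouse 3 lies among the cancer libraries.

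Junb (GRCm38 chr8:84974484-84978718, - strand) encodes a subunit of the AP-1 transcription factor, known for its part in effector Treg. Junb had 373, 401, 347 and 431 CPM in cancer mice 5 to 8, against 891, 722, 809 and 763 CPM in naive mice 1 to 4. Every cancer library lay below every naive one, and Junb fell 2.05-fold (log2 -1.04, SE 0.14, adjusted p = 0.00059), the smallest p of all genes tested. It passed in each of the 8 fits that left out 1 mouse, with an adjusted p of at most 0.00739. Of the 31 AP-1 and immediate early genes tested, Junb alone passed (0.155% of all genes were lower), 23 had a change below 0 and the list median was -0.19, beside 0.00 for all genes. Jun, the partner subunit, had 62.9, 23.1, 22.3 and 69.6 CPM in cancer libraries, against 96.9, 83.8, 89.3 and 84.9 CPM in naive libraries. Fosb and Zfp36, an immediate early subunit and an mRNA decay factor, were likewise lower in all 4 cancer than in all 4 naive libraries without passing, as was Jun (adjusted p = 0.193, 0.270 and 0.287 for Fosb, Zfp36 and Jun). Genes of this list also respond to tissue dissociation, whose part in the change was not tested.

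Of the 17 Treg core genes tested, 3 fell (0.155% of all genes did), none rose and 14 did not pass. At an unadjusted p under 0.05, 6 were lower (5.5% of all genes) and 0 higher (5.05%), 13 of 17 had a change below 0, and the list median was -0.24, beside 0.00 for all genes. Il2ra, the IL-2 receptor alpha chain or CD25 (chr2:11642807-11693193, + strand), had 210.5, 302, 365 and 323 CPM in cancer libraries, against 509, 793, 505 and 610.1 CPM in naive libraries. The groups did not overlap, and Il2ra fell 2.01-fold (log2 -1.01, SE 0.15, adjusted p = 0.00204). Gpr83, a G protein-coupled receptor enriched in Treg (chr9:14860210-14870789, + strand), had 264, 211, 240.1 and 273 CPM in cancer libraries, against 471, 597, 627 and 546 CPM in naive libraries. It fell 2.27-fold, again with no overlap (log2 -1.18, SE 0.20, adjusted p = 0.00825). Il2ra and Gpr83 passed in all 8 fits that left out 1 mouse. Lrrc32 (chr7:98489283-98502181, + strand) encodes GARP, which holds latent TGF-beta on the surface of activated Treg. Lrrc32 had 139.8, 100.5, 85.5 and 123 CPM in cancer libraries, against 195, 284, 430.5 and 367 CPM in naive libraries, and fell 2.84-fold (log2 -1.51, SE 0.28, adjusted p = 0.0160). All 4 cancer libraries lay below the naive ones, although the naive libraries themselves spread over more than the gap between the groups. Lrrc32 lost its call when naive mouse 4 was left out (adjusted p = 0.0860) and when cancer mouse 7 was (adjusted p = 0.0832). Other core genes gave no call. Il2rb is the IL-2 receptor beta chain, and Izumo1r is a member of the folate receptor family by sequence. Both were lower at an unadjusted p under 0.05 only (log2 -0.49 and -0.24, adjusted p = 0.463 and 0.469 for Il2rb and Izumo1r). Among genes with smaller changes, Ikzf2, the Helios factor, had 592 ± 156 CPM in cancer and 644 ± 78.3 CPM in naive libraries (SD, n = 4 each), the inhibitory receptor Ctla4 had 588 ± 72.2 CPM in cancer and 582 ± 59.9 CPM in naive libraries, and Tnfrsf18 (GITR) had 358 ± 30.5 CPM in cancer and 352 ± 37.7 CPM in naive libraries. Il2rb, Izumo1r, Ikzf2, Ctla4 and Tnfrsf18 were chosen after their values were seen.

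The IL-2 receptor and STAT5 target list, which shares Il2ra and Il2rb with the core list, had 1 of 16 genes pass, Il2ra (0.155% of all genes were lower), and 13 of 16 below 0 (median -0.25). Socs2, a STAT5-induced feedback inhibitor, had 58.3 to 89.8 CPM in cancer and 106 to 148 CPM in naive libraries without overlap, but did not pass (log2 -0.72, SE 0.20, adjusted p = 0.167). Bcl2, the survival factor, had 306 ± 96.8 CPM in cancer and 518 ± 118 CPM in naive libraries with overlap (adjusted p = 0.205). Tob1, an antiproliferative factor linked to T cell quiescence, had 45.1, 23.1, 51.6 and 27.4 CPM in cancer libraries, against 100.2, 97.1, 85.7 and 98.4 CPM in naive libraries. It fell 2.59-fold with no overlap (log2 -1.37, SE 0.26, adjusted p = 0.0160).

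Of the 44 genes of the interferon response list, 6 fell (0.155% of all genes did) and none rose. The list median was -0.50, beside 0.00 for all genes, with 40 of 44 below 0 and 26 lower at an unadjusted p under 0.05 (5.5% of all genes were). In 20 of the 44 every cancer library lay below every naive one, as in 2.11% of all genes. Irf7, a master regulator of the interferon response (chr7:141262706-141266481, - strand), had 391.9, 361, 354 and 419 CPM in cancer mice 5 to 8, against 637, 641, 617 and 765 CPM in naive mice 1 to 4. The groups stood well apart, and Irf7 fell 1.74-fold (log2 -0.80, SE 0.14, adjusted p = 0.00825). Ifi209, a member of the Ifi200 family of DNA-binding proteins, had 599 to 629.8 CPM in cancer and 788 to 949.6 CPM in naive libraries and fell 1.42-fold (adjusted p = 0.00825). Rtp4, an interferon-induced chaperone of receptors, had 242, 255, 253 and 230.0 CPM in cancer libraries, against 387, 415, 343 and 425 CPM in naive libraries, and fell 1.60-fold (adjusted p = 0.0160). The 4 cancer values of Ifi209 and Rtp4 lay close together and below all naive ones. Ddx60, a helicase linked to sensing of viral RNA, had 54.9, 49.2, 59.7 and 35.3 CPM in cancer libraries, against 124, 163, 100.3 and 132 CPM in naive libraries. Ddx60 fell 2.61-fold (log2 -1.38, SE 0.27, adjusted p = 0.0194). Isg15, the ubiquitin-like protein induced by interferon, had 84.6, 76.5, 59.6 and 81.3 CPM in cancer libraries, against 106, 190.2, 169.7 and 149 CPM in naive libraries and fell 2.04-fold (adjusted p = 0.0279). Phf11c, of the interferon-induced Phf11 cluster, fell 1.84-fold at 107 ± 14.9 CPM in cancer and 197 ± 29.8 CPM in naive libraries (SD, n = 4 each, adjusted p = 0.0279). The Ifi200 and Phf11 families have near-identical copies among which reads could be split, so Ifi209 and Phf11c are less certain. Leaving out 1 mouse in turn, Irf7 passed in 6 of 8 fits, Rtp4 and Ddx60 in 4 and Isg15 in 2. Isg15 and Phf11c lie past the 15 genes with the smallest p and were named after their values were seen, as were the genes in the next sentences. Slfn8, of the interferon-induced Schlafen family, had 239 to 285 CPM in cancer and 384 to 434 CPM in naive libraries and just missed the limit (adjusted p = 0.0519). Of the 4 genes of the list with a change above 0, none passed. Oas1a, which makes the activator of RNase L, had 101 ± 20.8 CPM in cancer and 64.6 ± 16.7 CPM in naive libraries (adjusted p = 0.40). The sum of the list was 8826 to 9780 CPM in cancer and 12159 to 14204 CPM in naive libraries.

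**Figure D3:**
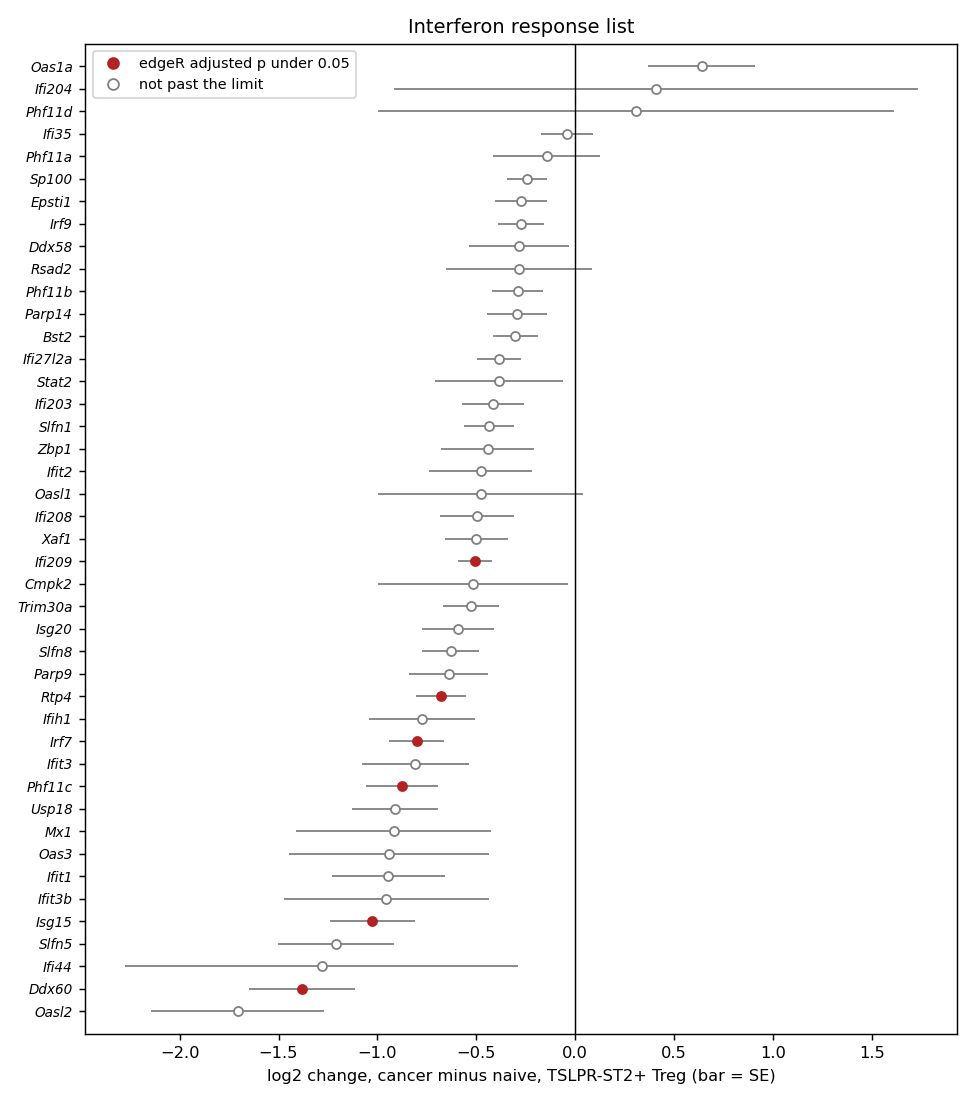
Log2 change (cancer minus naive) of the 44 interferon response genes in TSLPR-ST2+ Treg, with its standard error as a bar; red points passed at an adjusted p under 0.05. Of the 44 genes, 1 is not drawn and 40 lie left of 0, and the 6 that passed are Irf7, Ifi209, Rtp4, Ddx60, Phf11c and Isg15.

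Interferon-stimulated genes often carry, near their start, an element bound by the interferon factors, and RefSeq promoters (GRCm38.p6, 250 bases before to 50 after the start) were searched on both strands for its core, GAAA and GAAA with 2 bases of any kind (NN) between them, counting overlapping copies. It was in 19 of the 35 interferon list genes with a promoter in the table (54.3%), in 2 of 18 genes that fell, in 0 of 6 that rose, and in 3.94% of 10166 tested genes with a promoter. The 2 genes that fell were Isg15, with 3 overlapping copies whose first base lies 78, 72 and 66 bases before the start, and Ddx60, with 2 copies 53 and 19 bases before it. They are shown with Slfn5, an interferon list gene chosen after its values were seen. Slfn5 fell short of the limit (69.9 ± 32.1 CPM in cancer and 162 ± 29.8 CPM in naive libraries, adjusted p = 0.0852) and has 1 copy 155 bases before the start. Capitals mark the element.
Isg15 promoter, chr4:156200769-156201068, - strand: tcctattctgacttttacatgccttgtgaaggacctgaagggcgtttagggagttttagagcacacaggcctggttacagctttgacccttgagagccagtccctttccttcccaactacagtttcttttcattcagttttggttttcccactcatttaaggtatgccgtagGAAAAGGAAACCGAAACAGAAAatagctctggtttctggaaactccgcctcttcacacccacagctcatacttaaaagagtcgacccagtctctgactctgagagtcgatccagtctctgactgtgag
Ddx60 promoter, chr8:61927837-61928136, + strand: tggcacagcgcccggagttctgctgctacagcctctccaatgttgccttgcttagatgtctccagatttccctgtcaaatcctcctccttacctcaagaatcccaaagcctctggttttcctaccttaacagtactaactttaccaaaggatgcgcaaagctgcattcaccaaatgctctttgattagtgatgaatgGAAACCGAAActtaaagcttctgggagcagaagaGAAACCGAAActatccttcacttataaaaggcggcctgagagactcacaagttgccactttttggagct
Slfn5 promoter, chr11:82951852-82952151, + strand: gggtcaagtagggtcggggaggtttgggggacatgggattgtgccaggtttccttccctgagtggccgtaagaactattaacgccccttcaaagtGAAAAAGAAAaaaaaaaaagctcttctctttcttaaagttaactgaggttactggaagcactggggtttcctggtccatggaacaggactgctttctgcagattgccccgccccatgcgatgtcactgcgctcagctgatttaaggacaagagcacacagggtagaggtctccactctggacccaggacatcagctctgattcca
A match describes the letters in this window and does not show that a factor binds there.

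Among the interferon gamma inducible GTPases and MHC class I genes, none of 28 tested passed, with 11 lower (5.5% of all genes were) and 3 higher (5.05%) at an unadjusted p under 0.05 and a median of -0.13. The guanylate-binding protein Gbp4 had 307, 322, 350.4 and 364 CPM in cancer libraries, against 499, 513, 432 and 542 CPM in naive libraries, without overlap (log2 -0.56, SE 0.14, adjusted p = 0.0837). Gbp9 was also lower in all 4 cancer libraries (adjusted p = 0.141). H2-Q6, a nonclassical class I gene with near-identical copies, had 1009 ± 135 CPM in cancer and 795 ± 87.1 CPM in naive libraries (adjusted p = 0.113). H2-T24, another gene of the nonclassical class I region, is on neither list and fell 1.91-fold, with 50.3 to 66.1 CPM in cancer and 76.3 to 148 CPM in naive libraries (adjusted p = 0.0405). H2-T24 was named after its values were seen.

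Casp4 and Casp1 are neighbours on chromosome 9 (GRCm38, 5308828 to 5336783 and 5298517 to 5307265, both + strand). Casp4, mouse caspase-11, senses cytosolic lipopolysaccharide, and Casp1 is the inflammasome protease that cleaves the precursors of IL-1 beta and IL-18. Casp4 had 41.7, 62.5, 49.0 and 22.6 CPM in cancer mice 5 to 8, against 10.2, 7.73, 3.04 and 10.7 CPM in naive mice 1 to 4, and rose 5.55-fold (log2 2.47, SE 0.52, adjusted p = 0.0279). Casp1 had 58.7, 106, 123 and 70.7 CPM in cancer libraries, against 34.95, 28.0, 29.4 and 10.4 CPM in naive libraries, and rose 3.48-fold (log2 1.80, SE 0.39, adjusted p = 0.0370). The groups did not overlap in either gene. Casp1 kept its call in 1 of the 8 fits that left out a mouse and Casp4 in 3, with a log2 change of at least 1.54 and 2.20 in all of them. Of the 17 inflammasome genes tested these 2 passed (0.0471% of all genes were higher). Gsdmd, the pore-forming target of both caspases, had 121 ± 25.2 CPM in cancer and 157 ± 25.1 CPM in naive libraries (adjusted p = 0.404). Myeloid cells also express both caspases, and the macrophage and dendritic marker sum was 844, 2240, 1131 and 2909 CPM in cancer mice 5 to 8, against 1057, 829, 3133 and 1353 CPM in naive mice 1 to 4. Casp1 and Casp4 passed in the fit with that sum as a covariate. The sum pools markers that went in both directions, and its ranges overlapped between the groups. That fit therefore cannot tell the part of such cells in the caspase values, which was not tested.

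Lat, the adaptor that couples the T cell receptor to its downstream enzymes (chr7:126363824-126369570, - strand), had 661, 888, 766 and 748 CPM in cancer libraries, against 532, 496, 509 and 584 CPM in naive libraries. It rose 1.44-fold with no overlap (log2 0.53, SE 0.09, adjusted p = 0.00825) and was the 1 of 32 T cell receptor signalling genes to pass (0.0471% of all genes were higher). Lat passed in 6 of the 8 fits that left out 1 mouse and Emb, described next, in 4. Trac, the constant segment of the receptor's alpha chain and one of the sort genes, also had higher values in all 4 cancer libraries, 1197 ± 78.6 against 959 ± 106 CPM in naive libraries, without passing (adjusted p = 0.164). Trac was chosen after its values were seen. Emb, embigin, a partner of monocarboxylate transporters with a part in adhesion (chr13:117208536-117274415, + strand), had 308, 405, 311 and 307 CPM in cancer libraries, against 200.0, 169, 243 and 199 CPM in naive libraries. Emb rose 1.64-fold (log2 0.71, SE 0.14, adjusted p = 0.0194), the 1 of 30 homing and adhesion genes to pass. Ddx17, an RNA helicase of splicing and microRNA processing, had 142, 185, 135 and 102 CPM in cancer libraries, against 61.0, 80.0, 81.5 and 69.1 CPM in naive libraries, and rose 1.93-fold (adjusted p = 0.0160). Its close relative Ddx5 had 977 ± 82.6 CPM in cancer and 1084 ± 109 CPM in naive libraries (adjusted p = 0.505). Saraf, which limits store-operated calcium entry, rose 1.37-fold at 1005 to 1179 CPM in cancer and 678 to 926 CPM in naive libraries (adjusted p = 0.0402). AW112010, an interferon- and activation-inducible lincRNA locus, rose 1.48-fold at 723 to 977 CPM in cancer and 508 to 608 CPM in naive libraries (adjusted p = 0.0436). No cancer and naive values overlapped in Ddx17, Saraf or AW112010.

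The other genes that fell have no list in common. Samd9l, an interferon-inducible antiviral and growth-restraining protein, fell 1.76-fold at 232 to 298 CPM in cancer and 267 to 587 CPM in naive libraries (adjusted p = 0.0199), with naive mouse 3 inside the cancer range. Ppm1l, a protein phosphatase that restrains stress kinases, had 6.42, 6.51, 18.7 and 4.00 CPM in cancer libraries, against 41.2, 33.4, 48.6 and 69.7 CPM in naive libraries, and fell 5.40-fold (adjusted p = 0.0201). Rasa2, a Ras GTPase-activating protein that restrains T cell receptor signalling in human T cells (chr9:96539300-96631617, - strand), had 79.6, 96.3, 86.8 and 78.8 CPM in cancer libraries, against 128, 127, 143 and 147 CPM in naive libraries. The groups did not overlap, and Rasa2 fell 1.59-fold (log2 -0.67, SE 0.13, adjusted p = 0.0213). Rasa2 passed in 1 of the 8 fits that left out 1 mouse, and lost its call without the count filter (adjusted p = 0.0651) and in the 8 libraries alone (adjusted p = 0.275). Ogt, the enzyme of protein O-GlcNAcylation, fell 1.40-fold at 427 ± 57.4 CPM in cancer and 596 ± 48.7 CPM in naive libraries (SD, n = 4 each, adjusted p = 0.0201). Pigt, a subunit of the enzyme that attaches GPI anchors, fell 3.46-fold, and Itih5, a hyaluronan-binding inhibitor heavy chain, fell 2.82-fold (adjusted p = 0.0213 and 0.0257 for Pigt and Itih5). Named after their values were seen, the chromatin genes Kmt2d, a histone H3 lysine methyltransferase, and Eya3, a phosphatase and transcriptional coactivator, fell 1.76-fold and 2.19-fold, and the zinc finger gene Zfp687 fell 3.45-fold, with 10.5 to 28.0 CPM in cancer and 65.5 to 72.4 CPM in naive libraries (adjusted p = 0.0324, 0.0402 and 0.0279 for Kmt2d, Eya3 and Zfp687). Of the last 2 genes called, 1 is the predicted gene Gm4956, and Tmed1, under the 10 CPM asked of a described gene, was at 0 in all 4 cancer libraries and had 6.41, 0, 8.99 and 2.38 CPM in naive libraries.

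None of the 22 tested genes of the ST2 effector list passed. The list went in both directions, with 12 changes above 0 and 10 below it and a median of 0.07. At an unadjusted p under 0.05, 6 were higher (5.05% of all genes were) and 0 lower (5.5%) in cancer libraries. Rora, a nuclear receptor of tissue Treg and type 2 innate lymphoid cells, had 180.0, 136, 208 and 133 CPM in cancer libraries, against 82.9, 56.1, 117 and 70.9 CPM in naive libraries. Of this list Rora missed the limit by the least (log2 1.00, SE 0.23, adjusted p = 0.0501), with no overlap between the groups. Maf, a transcription factor of IL-10-producing T cells, had 134 ± 35.1 CPM in cancer and 73.8 ± 20.9 CPM in naive libraries (adjusted p = 0.0804). Tigit, an inhibitory receptor of effector Treg, had 58.5, 91.8, 101 and 75.9 CPM in cancer libraries, against 9.47, 67.4, 25.1 and 25.3 CPM in naive libraries, where mouse 2 overlapped (adjusted p = 0.0672). Areg, amphiregulin, had 4.28, 26.2, 0 and 9.37 CPM in cancer libraries and at most 0.437 CPM in naive libraries (adjusted p = 0.270). Klrg1, chosen after its values were seen, had 172 to 238 CPM in cancer and 25.5 to 170.2 CPM in naive libraries (adjusted p = 0.720). Gata3, also chosen after its values were seen, had 131 ± 31.0 CPM in cancer and 105 ± 36.8 CPM in naive libraries (adjusted p = 0.715). Among the genes below 0 were the transcription factors Irf4 and Prdm1, likewise chosen after their values were seen. Neither passed (log2 -0.77 and -0.61, adjusted p = 0.666 and 0.735 for Irf4 and Prdm1).

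All 11 tested genes of the Th17-type gene list, which shares Rora and Maf with the ST2 effector list, had a change above 0, with a median of 0.87, and none passed. At an unadjusted p under 0.05, 4 were higher (5.05% of all genes were): Rora, Maf, Il23r and Ccr6. Ccr6, a receptor that draws cells to mucosal CCL20, had 81.1 ± 32.5 CPM in cancer and 41.0 ± 16.9 CPM in naive libraries (adjusted p = 0.404). Il23r, a receptor chain of Th17 cells, had 0, 6.15, 6.78 and 0 CPM in cancer libraries and was at 0 in all 4 naive libraries (adjusted p = 0.265).

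Of the 30 homing genes, 11 were higher (5.05% of all genes were) and 2 lower (5.5%) at an unadjusted p under 0.05, while Emb alone passed (0.0471% of all genes were higher). Gpr15, which directs T cells to the large intestine, had 162, 98.1, 258 and 166 CPM in cancer libraries, against 50.7, 84.0, 111 and 38.7 CPM in naive libraries (log2 1.27, SE 0.33, adjusted p = 0.113). Cxcr3, a receptor for interferon-induced chemokines, had 153, 80.1, 221 and 146 CPM in cancer libraries, against 48.2, 54.0, 31.9 and 114 CPM in naive libraries (adjusted p = 0.304). In Gpr15 and Cxcr3 the lowest cancer library, mouse 6, lay below the highest naive one. Among costimulatory genes Cd40lg, the CD40 ligand, had 115, 57.5, 88.5 and 79.6 CPM in cancer libraries, against 28.1, 23.5, 47.2 and 47.7 CPM in naive libraries, without overlap or a pass (log2 1.22, SE 0.30, adjusted p = 0.0852). Of 15 inhibitory receptors none passed (3 higher and 1 lower at an unadjusted p under 0.05, as were 5.05% and 5.5% of all genes, median 0.38).

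In the heat shock list none of 22 passed, 7 were higher (5.05% of all genes were) and 0 lower (5.5%) at an unadjusted p under 0.05, and the median was 0.20. Ahsa1, which activates HSP90, had 364 ± 55.6 CPM in cancer and 265 ± 11.8 CPM in naive libraries, without overlap (adjusted p = 0.111). Stip1, which links HSP70 to HSP90, had 639 ± 43.6 CPM in cancer and 496 ± 27.9 CPM in naive libraries, likewise without overlap (adjusted p = 0.112). In the cholesterol and fatty acid synthesis list none of 25 passed, and the median was -0.28. Sc5d, a late enzyme of cholesterol synthesis, had 108 to 156 CPM in cancer and 190.4 to 234 CPM in naive libraries (adjusted p = 0.164). No gene passed among 30 proliferation, 23 glycolysis, 20 survival, 18 central T cell, 19 suppressive and repair product, 13 helper cytokine and 7 mitochondrially encoded genes.

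**Figure D4:**
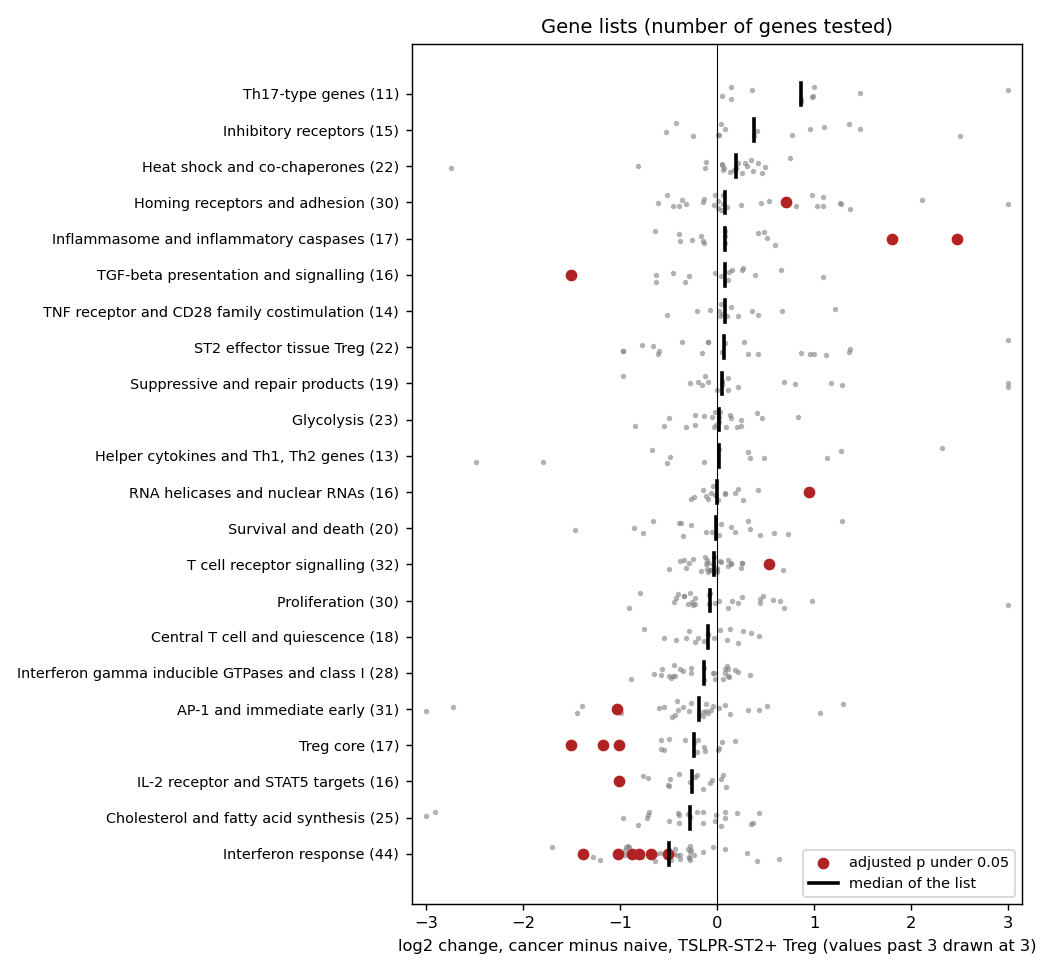
Log2 change (cancer minus naive) in TSLPR-ST2+ Treg of each tested gene of the lists (grey points, red where the adjusted p was under 0.05; values past 3 are drawn at 3), with the list median as a black line and lists ordered by it. The interferon response list has a median of -0.50 with 6 red points, and the Th17-type gene list, which shares genes with the ST2 effector list, has 0.87 with none.

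The same mice gave libraries of 3 other gates, so the change in TSLPR-ST2+ Treg was set against the mean change of those gates. No gene passed this test of a difference (edgeR, 0 of 14861, 1128 genes or 7.59% at an unadjusted p under 0.05, 49 by DESeq2), so none of the changes above is shown to be particular to TSLPR-ST2+ Treg. By gate, the test called 30 genes (0.202%) in TSLPR-ST2+ Treg, 618 (4.16%) for the TSLPR+ST2+ gate, 31 (0.209%) for TSLPR-ST2- cells and 7 (0.0471%) for TSLPR+ST2- cells, and whether these counts differ was not tested. Irf7 fell in all 4 gates, by 0.80 in TSLPR-ST2+, 0.98 in TSLPR-ST2-, 0.73 in TSLPR+ST2- and 0.68 in TSLPR+ST2+ on the log2 scale. Junb fell by 1.04, 0.87 and 1.07 in TSLPR-ST2+, TSLPR-ST2- and TSLPR+ST2+ Treg and did not pass in TSLPR+ST2- (log2 -0.60, adjusted p = 0.138). Casp1 rose by 1.80, 2.21 and 1.82 in the same 3 gates, with 1.37 and no pass in the other (adjusted p = 0.297). Il2ra, Gpr83 and Lrrc32 fell and passed in both ST2+ gates. In both ST2- gates their changes were also below 0, but did not pass. These were, for Il2ra, Gpr83 and Lrrc32, -0.37, -0.64 and -0.62 in TSLPR-ST2- and -0.62, -0.51 and -0.62 in TSLPR+ST2-. The differences of their changes from the mean of the other gates were -0.45, -0.38 and -0.42 and did not pass (adjusted p = 0.504, 0.738 and 0.853 for Il2ra, Gpr83 and Lrrc32).

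Rasa2 had the called change that came nearest to a difference among the 28 described, with a change of -0.67 in TSLPR-ST2+ against 0.01 (TSLPR-ST2-), 0.21 (TSLPR+ST2-) and 0.20 (TSLPR+ST2+). Its difference was -0.81 (SE 0.16, adjusted p = 0.193). Ddx60 changed by -1.38 in TSLPR-ST2+ Treg and gave -0.67, -0.52 and 0.09 in TSLPR-ST2-, TSLPR+ST2- and TSLPR+ST2+ Treg (difference -1.02, SE 0.30, adjusted p = 0.466). The interferon list had 6 genes lower in TSLPR-ST2+ Treg (0.155% of all genes were, list median -0.50), 7 in TSLPR+ST2+ (2.5%, median -0.37), 12 in TSLPR-ST2- (0.148%, median -0.70) and 1 in TSLPR+ST2- (0.0202%, median -0.44). The median of the Th17-type gene list was 0.87 in TSLPR-ST2+ Treg, beside -0.12, 0.11 and 0.39 in TSLPR-ST2-, TSLPR+ST2- and TSLPR+ST2+ Treg, and none of its genes passed the test of a difference. Rora changed by 1.00 in TSLPR-ST2+ Treg, beside -0.10, 0.01 and 0.16 in TSLPR-ST2-, TSLPR+ST2- and TSLPR+ST2+ Treg (difference 0.98, SE 0.26, adjusted p = 0.466).

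**Figure D5:**
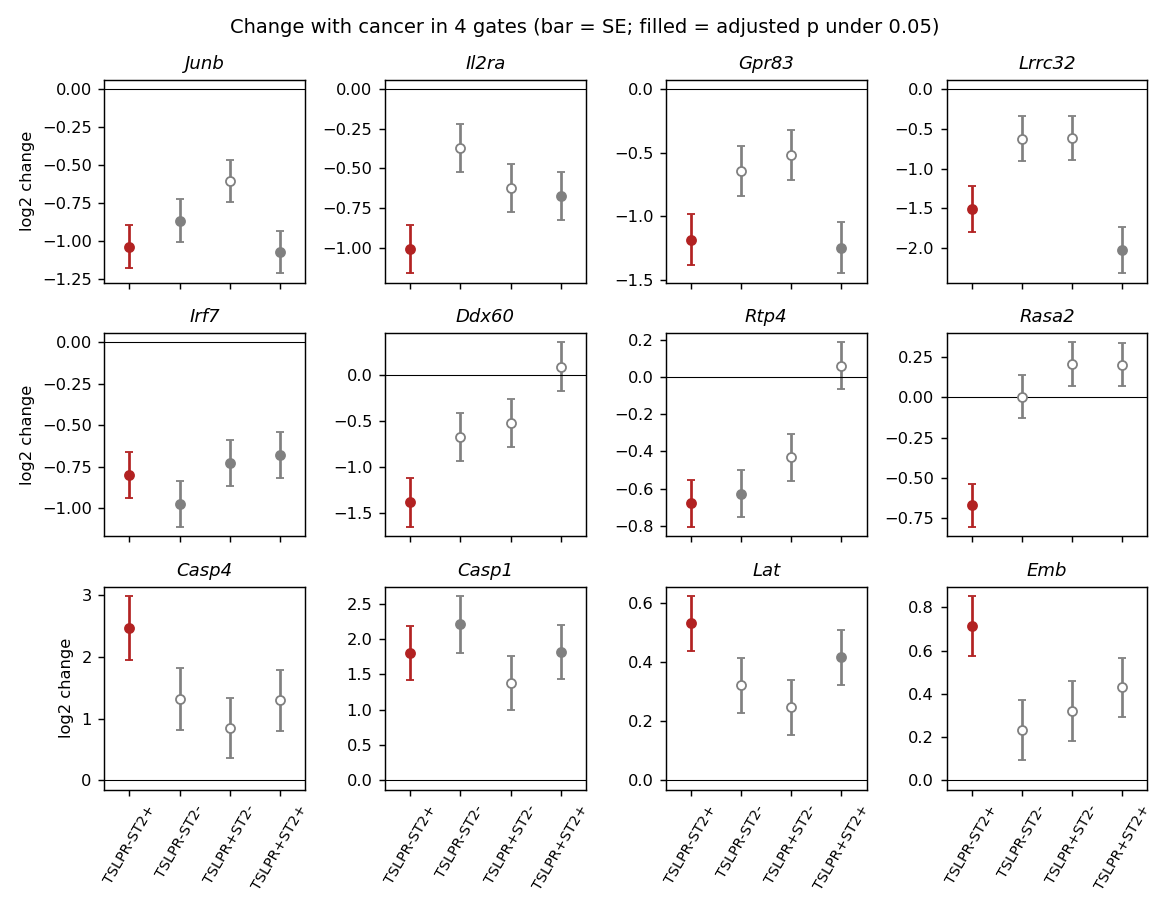
Log2 change with cancer (cancer minus naive) of 12 genes in the 4 gates, TSLPR-ST2+ in red at the left, with standard errors as bars; filled points passed at an adjusted p under 0.05, and each panel has its own scale. Irf7 is filled in all 4 gates, and Rasa2 lies below 0 in TSLPR-ST2+ alone, a difference that did not pass.

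Set against TSLPR+ST2+ Treg alone, the other ST2+ gate, 4 genes changed differently (0.0269% of those tested, with 1776 or 12% at an unadjusted p under 0.05), each with an adjusted p of 0.0491. Dctn1, a subunit of the dynactin motor complex, changed by 0.09, against -1.66 in TSLPR+ST2+ Treg, and had 63.9 ± 25.5 CPM in cancer and 60.2 ± 8.29 CPM in naive TSLPR-ST2+ libraries. Dusp5, a phosphatase of ERK, changed by -0.44, against -1.72 there. Sik2, a salt-inducible kinase, changed by -0.85, against 1.52 there, and had 25.8 ± 11.7 CPM in cancer and 46.5 ± 15.8 CPM in naive TSLPR-ST2+ libraries. The zinc finger gene Zfp940 had 8.27 ± 1.69 CPM in cancer and 7.05 ± 7.01 CPM in naive TSLPR-ST2+ libraries, and was at 0 in all 4 cancer TSLPR+ST2+ libraries, against 15.3 ± 7.98 CPM in naive ones. In TSLPR-ST2+ Treg itself none of these 4 passed (adjusted p = 0.968, 0.367, 0.313 and 0.981 for Dctn1, Dusp5, Sik2 and Zfp940), and no gene passed with RLE scaling, without the count filter, with the mouse as a random block, with the myeloid marker sum as a covariate or without the TSLPR-ST2+ library of mouse 5. In TSLPR+ST2+ Treg all 7 mitochondrially encoded genes passed as higher in cancer (median log2 1.31), as did 7 of 16 epithelial markers (median 5.26), while in TSLPR-ST2+ Treg none of either list passed (medians 0.16 and 2.09). Their part in these 4 differences was not tested beyond the mitochondrial share as a covariate, with which 1 gene passed. Against TSLPR-ST2- and TSLPR+ST2- Treg no gene passed (910 genes, 6.12%, and 834 genes, 5.61%, at an unadjusted p under 0.05).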

How the data were processed

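RNA from 200 sorted Treg per mouse and gate was read as 58-base single reads. The deposited table holds raw counts per Ensembl gene (53465 genes, 53274 with a symbol, 33 columns each matched to 1 library). Per the submitters' processing notes the build was GRCm38 and the tools included SAMtools 1.2, Picard 1.134, HTSeq 0.4.1 and FastQC 0.11.3. Aligner, annotation release and strandedness are not given in the sources used, so overlapping and antisense genes cannot be told apart. Gene positions come from GENCODE M21.

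Counts were tested with edgeR 4.0.16 in R 4.3.3 (quasi-likelihood F-test, robust, TMM, filterByExpr with a minimum count of 10 and a minimum total of 15, Benjamini-Hochberg over all genes). One group-means model held all 32 Treg libraries of 8 groups, which share 1 estimate of the spread; SE is the log2 change divided by the square root of F. Library totals were 4038718 to 8839946 counts. Fold changes are model estimates. The replicate is the mouse. Mouse numbers pair the gates and not the arms of the cancer comparison: deviations from group means correlated at 0.00993 on average over 48 same-mouse pairs, 3 of them over 0.1.

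Described genes are Foxp3, Crlf2 and Il1rl1, up to 15 called genes per direction (10 CPM or more on average in the group where they are higher), and up to 4 members of a list by smallest p. The 4 genes that differed from TSLPR+ST2+ Treg are also described, and others are said to be chosen after their values were seen. The libraries and lists were chosen with earlier results of these data known. Alternatives were RLE scaling, DESeq2 1.42.0, no count filter, the 8 libraries alone, each mouse left out, the library of mouse 5 left out, limma-voom (3.58.1) with the mouse as a random block, edgeR with a fixed mouse block, libraries thinned to 4038718 counts, and covariates for mitochondrial share and for macrophage and dendritic markers. The procedure was tested on simulated data. The library of CD44low cells was not used here. Some genes of the lists are counted but not reported here by name.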

Additional observations from a re-analysis of the deposited data

Results flagged for a closer look

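In these cases 1 of 4 libraries of a group lay far from the other 3, which happens by chance in about 1 in 20 groups. Both groups of 97 genes were searched, so several such cases are expected by chance. Among cancer libraries they were the cyclin Ccnb2 in mouse 8 (30.7 CPM), the helicase Ddx5 in mouse 7 (1099 CPM), the phosphatase Ppm1l in mouse 7 (18.7 CPM), the splicing-related gene Pnisr in mouse 5 (108.7 CPM), and, in mouse 6, Emb (404.5 CPM), Fosb (1.08 CPM) and the IL-12 receptor chain Il12rb2 (7.77 CPM). Among naive libraries they were Cdk6 in mouse 2 (45.0 CPM), the cathepsin Ctsb (1165 CPM), Hif1a (179.5 CPM), the kinase Pim1 (104.5 CPM) and Zfp36 (261 CPM) in mouse 3, and Irf7 (765 CPM), Kmt2d (284 CPM) and Phf11c (242 CPM) in mouse 4. The value of Fosb lies near the floor, with the other cancer libraries at 0. Ctsb, Hif1a, Pim1 and Zfp36, set apart in naive mouse 3, did not pass in the cancer comparison. Of the 5 genes here that did, the value of Ppm1l lay toward the other group and those of Emb, Irf7, Kmt2d and Phf11c lay away from it.

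In 4 genes the change with cancer differed between TSLPR-ST2+ and TSLPR+ST2+ Treg by a test of the difference itself. The difference, TSLPR-ST2+ minus TSLPR+ST2+, was 1.75 for Dctn1, 1.28 for Dusp5, -2.37 for Sik2 and 9.83 for Zfp940 on the log2 scale (edgeR adjusted p = 0.0491 for each of the 4). None passed with RLE scaling, without a count filter, with the random mouse block, with the myeloid covariate or without the library of mouse 5, and 1 passed with the mitochondrial share as a covariate. The fitted value of Zfp940 rests on a group at 0 and is not a bound.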

How the results depend on the processing

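All 30 called genes kept their sign in every alternative fit, other than that on the 8 libraries alone, where 29 kept it and Tmed1 was not tested. Genes higher numbered 7, against 11 with RLE scaling, 90 with DESeq2, 0 with the 8 libraries alone, 14 without the library of mouse 5, 20 with limma-voom and the mouse as a random replicate block, 11 with thinned libraries and 19 with the mitochondrial share as a covariate. Genes lower numbered 23, against 114 with DESeq2, 2 with the 8 libraries alone and 47 with that replicate block, where 27 of the 30 remained. Leaving out 1 mouse gave 0 to 13 genes higher and 4 to 33 lower. Without a count filter 24 genes passed in all, 23 of them among the 30. Genes that differed from the mean of the other gates numbered 0, against 49 with DESeq2, 0 to 3 when 1 mouse was left out and 0 with a fixed replicate block. Genes that differed from TSLPR+ST2+ Treg numbered 4, against 0 with RLE scaling, 0 without a filter, 123 with DESeq2, 0 without the library of mouse 5, 0 with the random and 3 with the fixed replicate block, 1 with the mitochondrial share and 0 with the myeloid marker sum as a covariate (chosen after seeing the data), and 0 to 13 when 1 mouse was left out. Il12rb2, not called, had a log2 change of 2.32, and of -1.02 (without mouse 6) to 2.73 when 1 mouse was left out. The cause of these shifts was not tested, beyond the smaller number of libraries where some were left out. With 4 mice a side and 200 cells a library, a gene that did not pass is not shown to be unchanged.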
